A study of Mus musculus with 4 samples.

Results

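Coronary artery cells marked by Cxcl12 and Glul were described in 4 droplet libraries of mouse cardiac endothelium. Each cell's UMIs, the molecular barcodes that count single captured transcripts, were summed over Cxcl12, Glul, Alpl, Nebl and Stmn2. A cell was taken as an artery cell when this arterial sum was at least 3 and exceeded each of the sums for mature capillary genes (Timp4, Car4, Rgcc, C1qtnf9), angiogenic capillary genes (Kcne3, Apln, Tmem255a, Pcdh17, Ptp4a3) and large artery genes (Fbln5, Eln, Gkn3, Clu). It also needed at least 1 UMI of Pecam1, Cdh5 or Egfl7 and none of the endocardial genes Npr3 and Tmem108. Of 21920 cells, 1563 met the rule, namely 38 of the E12 cells, 20 of E15, 398 of P2 and 1107 of the adult. The levels of the selecting genes therefore define the cells and are given as a description.

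The hearts came from C57Bl6J mice with no engineered allele or treatment in the labels, at embryonic days 12 and 15, at postnatal day 2 and at 8 weeks of age. CD31+/CD45- cells were sorted and frozen with DMSO, and animals were pooled, 37 hearts for E12, 48 for E15, 21 for P2 and 6 for the adult. After thawing, dead cells were depleted from the embryonic samples, whereas the P2 and adult samples were sorted again. Each stage was 1 library with no replicate, so stage, library and the handling that differed with them cannot be told apart. No difference was tested. By the paper, digestion differed between E12, E15 and the postnatal hearts but was the same for P2 and adult. Red blood cells were lysed in the adult samples only. Intervals are 95% intervals and cover counting error only. The libraries held 5732, 6062, 5884 and 4242 cells at E12, E15, P2 and adult, with medians of 1241, 1013, 4531.5 and 1510 UMIs per cell. Artery cells had medians of 1270, 981, 4348 and 1613 UMIs. Cell barcodes occurred in more than 1 library 52 times for E12 and E15, 36 for E12 and P2, 25 for E12 and adult, 60 for E15 and P2, 43 for E15 and adult and 39 for P2 and adult. Of these shared barcodes 1 belonged to artery cells of both libraries, E12 and adult.

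Arteries carry blood to the capillary bed under high flow, and their endothelium is specified by VEGF and Notch signalling with SoxF transcription factors. Coronary arteries form as capillary plexus cells take on arterial fate, leave the cell cycle and assemble into larger vessels. Cxcl12 is a chemokine that signals through the receptor Cxcr4 and is cleared by Ackr3. Glul, glutamine synthetase, makes glutamine from glutamate and ammonia. Alpl is the tissue-nonspecific alkaline phosphatase, Nebl an actin-binding protein of the nebulin family and Stmn2 a tubulin-binding stathmin known mainly from neurons. Gja5 is a gap junction protein of arterial endothelium that was not used to choose the cells.

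In GRCm38 with the GENCODE M21 annotation, Cxcl12 (ENSMUSG00000061353) lies at chr6:117168535-117181367 on the plus strand, Glul (ENSMUSG00000026473) at chr1:153899944-153909723 on the plus strand and Gja5 (ENSMUSG00000057123) at chr3:96904693-97077416 on the plus strand. Alpl lies at chr4:137741733-137796384 and Nebl at chr2:17343909-17731464, both on the minus strand, and Stmn2 at chr3:8509360-8561606 on the plus strand. The promoters of Cxcl12, Glul and Gja5 are shown because these are the 2 genes that name the cells and the arterial gene outside the rule. Each runs from 250 bases before to 50 bases after a RefSeq transcription start in GRCm38.p6. The Gja5 start used here lies inside the longer GENCODE gene. Capitals mark 4 short motifs on either strand, the letters TGGGAA or their reverse complement TTCCCA for RBPJ (the Notch effector), ACAAT or its reverse complement ATTGT for SOX factors, CAGGAA or its reverse complement TTCCTG for ETS factors and CACCC or its reverse complement GGGTG for KLF factors.
Cxcl12, chr6:117168285-117168584, plus strand: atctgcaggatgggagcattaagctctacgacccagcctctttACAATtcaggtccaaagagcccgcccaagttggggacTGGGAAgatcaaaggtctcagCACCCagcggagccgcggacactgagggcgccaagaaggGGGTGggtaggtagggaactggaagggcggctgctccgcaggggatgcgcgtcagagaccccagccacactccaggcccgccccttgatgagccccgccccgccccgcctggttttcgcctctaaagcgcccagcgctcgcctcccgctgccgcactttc
Glul, chr1:153899679-153899978, plus strand: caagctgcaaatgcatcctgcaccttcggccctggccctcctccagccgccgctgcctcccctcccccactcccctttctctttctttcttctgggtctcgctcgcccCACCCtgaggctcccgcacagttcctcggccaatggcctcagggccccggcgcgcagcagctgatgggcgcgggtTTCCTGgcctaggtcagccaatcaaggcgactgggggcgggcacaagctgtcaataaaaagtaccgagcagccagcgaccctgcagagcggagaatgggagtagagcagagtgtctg
Gja5, chr3:97032152-97032451, plus strand: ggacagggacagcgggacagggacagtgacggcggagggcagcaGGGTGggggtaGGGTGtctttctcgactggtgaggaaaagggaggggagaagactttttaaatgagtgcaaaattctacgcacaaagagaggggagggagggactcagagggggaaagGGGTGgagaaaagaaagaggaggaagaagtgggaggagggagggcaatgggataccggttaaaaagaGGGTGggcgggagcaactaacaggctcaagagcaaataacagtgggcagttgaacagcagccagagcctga
The Cxcl12 window held 1 RBPJ, 1 SOX and 2 KLF matches, the Glul window 1 ETS and 1 KLF match and the Gja5 window 4 KLF matches. Over 32851 promoters of the same length, 25.6% held the RBPJ letters, 31.0% the SOX letters, 30.6% the ETS letters and 57.5% the KLF letters. Such matches occur in many promoters and describe the letters only.

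Cells that met the rule were a larger share of the adult than of the P2 endothelium, and few at E15. At E12 the cells that met the rule went against the label, as described after the shares. Among gated endothelial cells, those with the pan-endothelial UMI and without endocardial UMIs, the E12 library held 2.40% (1.71 to 3.28%, exact binomial), E15 0.818% (0.501 to 1.26%), P2 10.6% (9.60 to 11.6%) and the adult 28.2% (26.8 to 29.6%). The gated totals were 1582, 2444, 3766 and 3932 cells. The adult share was above the P2 share although adult cells held fewer UMIs. With every cell thinned to 500 UMIs, P2 gave 4.25% and the adult 17.0%. The rule weighs Cxcl12 heavily. With Cxcl12 left out of the sum, P2 gave 7.28% and the adult 10.3%. In the adult, 186 of the 1107 artery cells met the rule through Cxcl12 UMIs alone, against 6 of 398 at P2, and leaving them out gave an adult share of 23.4%.

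**Figure D1:**
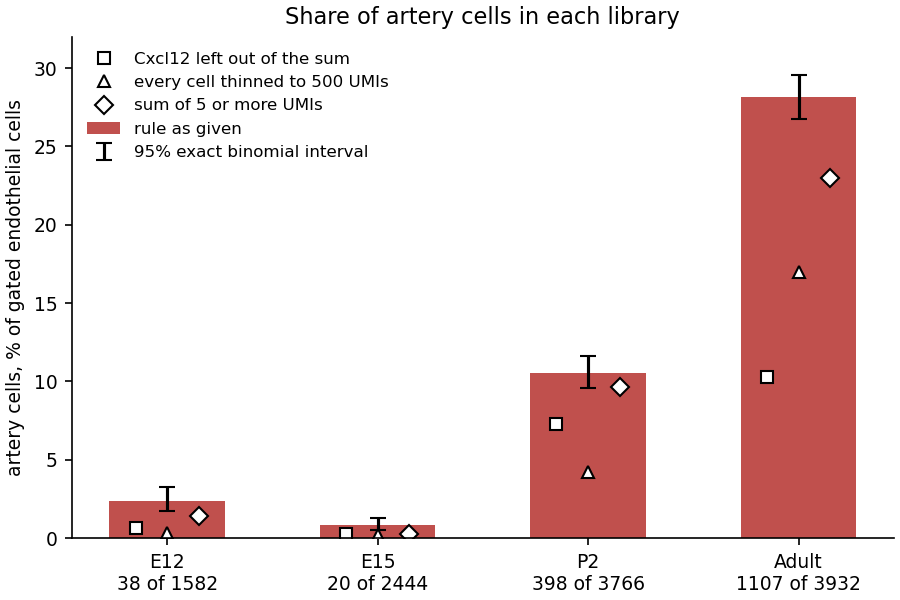
Share of cells that met the rule (% of gated endothelial cells, y axis) in each of the 4 libraries, with exact 95% binomial intervals. Bars show the rule as given and open symbols the alternatives (Cxcl12 left out of the sum, cells thinned to 500 UMIs, a sum of 5 or more), and the adult library lies above P2 under each of them.

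At E12 the chosen cells went against the label. Their summed level over 10 pan-endothelial genes was 1247 CPM (counts per 1e6 UMIs of the class), against 2651 CPM in Kcne3/Apln cells of the same library, with Kdr and Erg at 0. Their summed fibroblast markers reached 2194 CPM, led by Col3a1 at 881 CPM with Tcf21 at 0, and their mural markers 1496 CPM (1203 to 1839 CPM), led by Tagln at 548 CPM with Myh11 at 0. Kcne3/Apln cells had 126 and 68.6 CPM of these lists, but the Fbln5/Eln large artery cells of E12 had 2183 and 1019.9 CPM. The fibroblast and mural markers were thus not particular to the chosen cells. Cardiomyocyte markers summed to 731 CPM in the chosen cells, with at least 2 UMIs in 4 cells, and leukocyte markers to 482 CPM, in 1 cell. Large artery cells had 95.6 and 7.97 CPM of these 2 lists, and Kcne3/Apln cells 34.3 and 11.4 CPM. Of the 38 cells, 25 were chosen by Cxcl12 alone, only 3 held UMIs of both Cxcl12 and Glul, and only 3 remained once cells with at least 2 UMIs over the mural, fibroblast, cardiomyocyte, leukocyte and erythroid markers (other types' markers) were left out. Against Kcne3/Apln cells, 21 of 400 genes (5.25%) were at least 2-fold higher on log2(CPM + 20) and 30 (7.5%) at least 2-fold lower. Against the Fbln5/Eln large artery cells of E12, 2 of 389 genes (0.514%) were higher and 1 (0.257%) lower. The leading genes against Kcne3/Apln cells were the growth factor Ptn at 1479 against 22.9 CPM and the Wnt modulator Sfrp2 at 748 against 11.4 CPM, both also found in those large artery cells at 817 and 562 CPM. The endothelial G protein subunit Gng11 was at 66.5 against 1028 CPM. The E12 cells are therefore called by the rule only, and the account of arterial genes rests on P2 and adult cells.

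The 20 cells of E15 were fewer than the 30 set for a comparison. They held Cxcl12 at 2073 CPM, Stmn2 at 1217 CPM, Glul at 360 CPM and Gja4 at 496 CPM over 22192 UMIs, and Gja5 was seen in 4 cells. Their pan-endothelial sum was 3830 CPM, above that of E12. Fibroblast markers summed to 1442 CPM with Tcf21 and Pdgfra at 0, mural markers to 496 CPM with Pdgfrb, Rgs5 and Myh11 at 0, and 1 of the 20 cells held lymphatic markers. Of the 20 cells, 8 were chosen by Cxcl12 alone and 2 by Stmn2 alone, and 3 held UMIs of both Cxcl12 and Glul. Without cells holding other types' markers 11 remained.

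At P2 and in the adult the chosen cells carried endothelial genes beyond those of the gate. The VEGF receptor Kdr was at 397 CPM in P2 and 753 CPM in adult artery cells, beside 467 and 895 CPM in Timp4/Car4 capillary cells, and the junction protein Esam at 994 and 1241 CPM beside 1007 and 1302 CPM. The tight junction gene Cldn5 was lower, at 1033 and 640.5 CPM beside 2028 and 937 CPM. The sum over 10 pan-endothelial genes, which includes the 3 gate genes, was 7000.4 and 7954 CPM beside 7764 and 8641 CPM. All further values compare these artery cells with 1409 P2 and 1856 adult Timp4/Car4 cells, with 968 P2 and 65 adult Kcne3/Apln cells, and with 397 P2 and 156 adult Fbln5/Eln large artery cells. The 65 adult Kcne3/Apln cells had summed mural markers of 2369.9 CPM, so comparisons with them mix in mural transcripts to an extent that was not tested.

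Cxcl12 gave 58.0% of the arterial UMIs of P2 artery cells and 61.6% of those of adult ones. In P2 artery cells it stood at 2673 CPM (2600 to 2748 CPM, exact Poisson) with UMIs in 348 of 398 cells, and in adult artery cells at 3509 CPM with UMIs in 1037 of 1107. Timp4/Car4 cells held 40.1 CPM at P2 but 1022 CPM in the adult, where 70.0% of them had a Cxcl12 UMI. Adult capillary cells thus shared much of this gene. Glul stood at 1202 CPM in P2 artery cells and 829.7 CPM in adult ones, with UMIs in 364 and 641 cells. It was at 118 and 108 CPM in Timp4/Car4 cells. Both genes were seen together in 330 of 398 P2 cells (82.9%) and in 587 of 1107 adult cells (53.0%). Many artery cells also held UMIs of the competing sums. A mature capillary UMI was seen in 61.6% of P2 and 87.6% of adult artery cells. For angiogenic capillary genes these shares were 84.4% and 45.9%, and for large artery genes 65.8% and 45.4%.

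Stmn2 stood at 592 CPM in P2 and 708 CPM in adult artery cells, with UMIs in 57.0% and 53.5% of cells. It was at 361 and 634 CPM in large artery cells, a class in which the arterial sum is by definition below the large artery sum. Alpl stood at 58.0 CPM at P2 (47.7 to 69.9 CPM) and 411 CPM in the adult, with UMIs in 18.6% and 43.6% of cells. Nebl stood at 81.8 and 235 CPM, with UMIs in 20.1% and 25.8% of cells. Alpl and Nebl were near absent from P2 Timp4/Car4 cells, at 1.26 and 0.629 CPM, and were at 65.0 and 7.19 CPM in adult ones. All 5 genes were seen in 23 cells at P2 and 105 in the adult. The median arterial sum was 17 UMIs at P2 and 9 in the adult, and the highest 115 and 49.

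**Figure D2:**
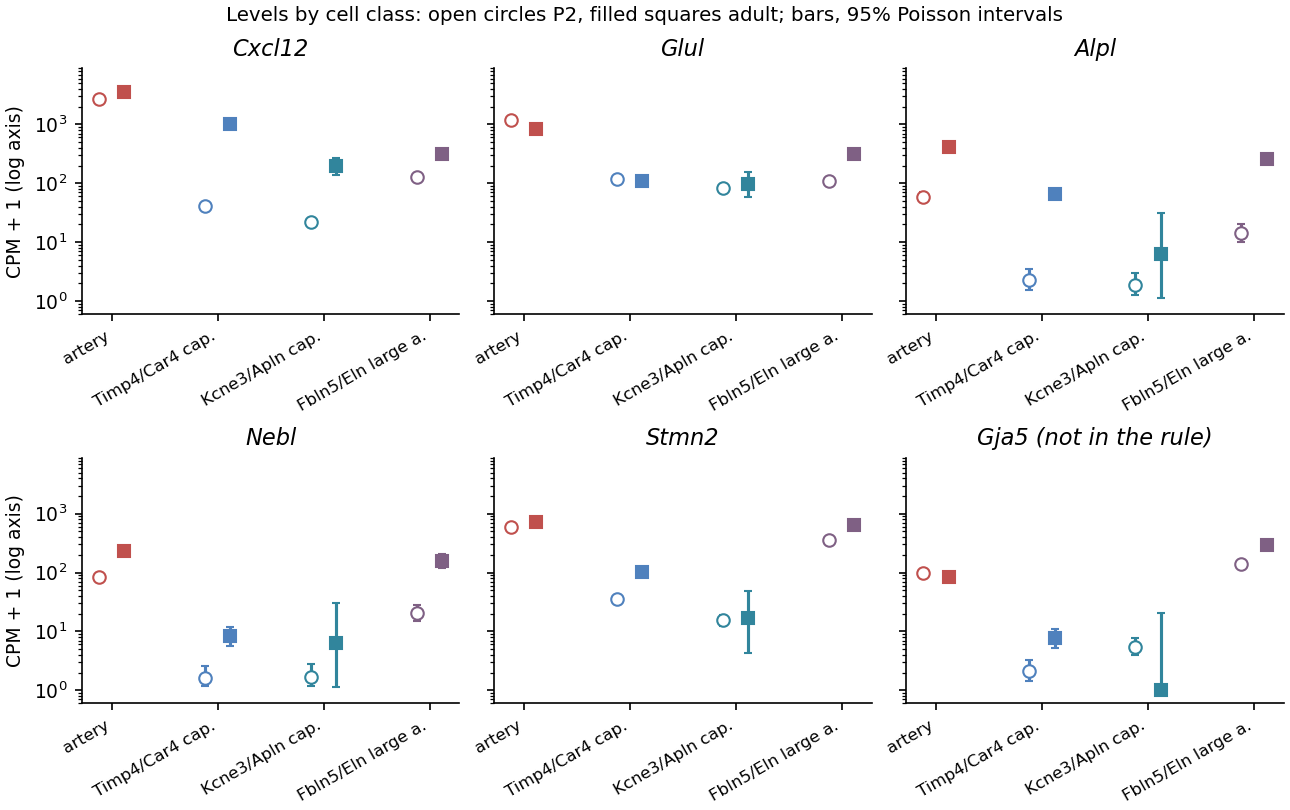
Levels of the 5 selecting genes and of Gja5 (CPM + 1, log axis) in artery, Timp4/Car4, Kcne3/Apln and large artery cells at P2 (open circles) and in the adult (filled squares), with 95% Poisson intervals. Cxcl12 in adult Timp4/Car4 cells lies at 1022 CPM, far above the 40.1 CPM of P2.

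Each selecting gene was also measured in cells chosen without it, by the other 4 genes. At P2, Cxcl12 was then at 2763 CPM in 274 artery cells and 89.8 CPM in capillary cells, a ratio of 30.8 (28.2 to 33.6). In the adult it was at 2458 against 1677 CPM, a ratio of 1.47 (1.40 to 1.54) over 405 artery cells. The separation by Cxcl12 was therefore small in the adult once Cxcl12 did not choose the cells. The adult Timp4/Car4 class changed too, to 2303 cells from 1856, and the part of this change in the ratio was not tested. The other genes kept larger ratios there, with 5.50 for Glul, 4.51 for Alpl, 18.5 for Nebl and 4.71 for Stmn2. At P2 these ratios were 9.21, 45.6, 104 and 11.6.

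Gja5 was described at P2 and in the adult, since only 4 of 20 cells held a UMI at E15 and 3 of the 38 cells of E12, beside 2 of 36 Kcne3/Apln cells there. At P2 it was seen in 63 of 398 artery cells (15.8%) and in 7 of 1409 Timp4/Car4 cells, at 97.6 CPM (84.0 to 113 CPM) against 1.10 CPM. In the adult it was seen in 120 of 1107 artery cells (10.8%), at 83.6 CPM (71.5 to 97.1 CPM) against 6.59 CPM in Timp4/Car4 cells. The ratios to Timp4/Car4 cells were 88.6 (42.2 to 224) and 12.7 (8.11 to 20.8), and neither interval reached 1. Kcne3/Apln cells held 4.49 CPM at P2. In the adult 0 of 65 held a Gja5 UMI, which allows up to 16.1 CPM when the limit is set at 3 counts. Large artery cells held more than artery cells, at 136 CPM at P2 and 289.6 CPM in the adult, with ratios of artery to large artery cells of 0.718 (0.593 to 0.867) and 0.289 (0.226 to 0.370). Cells with endocardial UMIs held 18.5 and 10.5 CPM. Large artery cells thus stood above artery cells, and artery cells above endocardial and capillary cells, at both stages. In the adult the endocardial value rested on 5 cells, and its interval (3.40 to 24.5 CPM) overlapped that of Timp4/Car4 cells (4.13 to 9.98 CPM). With all cells thinned to 500 UMIs, 4.02% of P2 and 3.88% of adult artery cells had a Gja5 UMI, against 0.428% and 1.13% of endocardial cells. The thinned adult endocardial share rested on 2 of 177 cells. Its interval (0.137 to 4.02%) overlapped that of adult artery cells (2.83 to 5.20%). Thinned large artery cells gave 7.05% at P2 and 10.9% in the adult.

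Outside the selecting genes, genes past 2-fold against capillary cells were counted. Against Timp4/Car4 cells, 121 of 7557 genes with enough UMIs (1.6%) were at least 2-fold higher at P2 and 46 (0.609%) at least 2-fold lower. In the adult these were 121 of 7841 (1.54%) and 33 (0.421%). These counts depended on the pseudocount, with 224 higher genes at P2 and 203 in the adult for a pseudocount of 5 and 51 and 54 for 50, and thinning to 500 UMIs gave 31 and 33. Against Kcne3/Apln cells, 171 (2.25%) were higher and 134 (1.77%) lower of 7585 at P2, and 104 (6.62%) higher and 78 (4.96%) lower of 1571 in the adult. The medians over all genes were 0.03, 0.04, 0.06 and -0.03 on the log2 scale. These genes did not choose the cells but were read from the same cells, and the counts are descriptions. Genes to describe were taken from 1456 with enough UMIs in all 4 comparisons, which share the same artery cells.

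The genes that stood highest in all 4 comparisons included matrix, signalling and transport genes. The matrix glycoprotein Fn1 was at 326 CPM in P2 artery cells against 65.1 CPM in Timp4/Car4 and 69.2 CPM in Kcne3/Apln cells, and in the adult at 247 against 23.4 and 21.5 CPM. Azin1, which stabilises the polyamine enzyme ornithine decarboxylase, was at 528 against 84.1 CPM at P2 and 321 against 59.9 CPM in the adult, differences of 2.40 and 2.09. The calcium-binding protein S100a6 was at 324 against 56.1 CPM and at 661 against 151 CPM. These 3 genes separated artery cells from both capillary classes at both stages. The taurine transporter Slc6a6 was at 837 against 332 CPM at P2 and 766 against 327 CPM in the adult, and at 138 and 37.6 CPM in Kcne3/Apln cells. The secreted protein Pi16 was at 133 against 17.8 CPM and 208 against 53.0 CPM. The tyrosine phosphatase Ptprr was at 58.0 against 5.19 CPM and 224 against 75.8 CPM. Tm4sf1, an endothelial membrane protein, was the most abundant of the group, at 2023 against 512 CPM and 3537 against 1489 CPM. The lectin-domain receptor Clec14a, the endocytic protein Ehd4, the transcription factor Ebf1, Smpdl3a, the tubulin-binding Tppp3, Fxyd5 and the junction receptor Heg1 completed the 20 with Hey1, Sox17, Mecom, Fbln2, Pdgfd and Ltbp4, described with their groups. Their smallest differences over the 4 comparisons lay between 0.83 for Ltbp4 and 1.96 for Fn1.

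The genes that stood lowest in all 4 comparisons were led by Trp53i11 and Aplnr. Trp53i11 was at 91.8 CPM in P2 artery cells against 330.3 CPM in Timp4/Car4 cells and 396 CPM in Kcne3/Apln cells, and in the adult at 63.1 against 306 and 462 CPM. Aplnr, the apelin receptor of venous and capillary endothelium, was at 114 against 591 and 399 CPM, and in the adult at 109.5 CPM against 485 and 398 CPM. Its ratio to Timp4/Car4 cells was 0.194 (0.168 to 0.222) at P2, and the adult ratio was 0.226 (0.195 to 0.260). Both genes were thus far below the capillary level at both stages. The imprinted gene Mest was at 1031 against 2408 CPM at P2 and 30.8 against 82.1 CPM in the adult, with ratios of 0.428 and 0.375. The actin-bundling protein Fscn1, the vasodilator peptide Adm, Dok4, Mmd and Sh3bp5 were lower in all 4 comparisons too, with the fatty acid carrier Fabp5 and the VEGF and semaphorin co-receptor Nrp2.

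**Figure D3:**
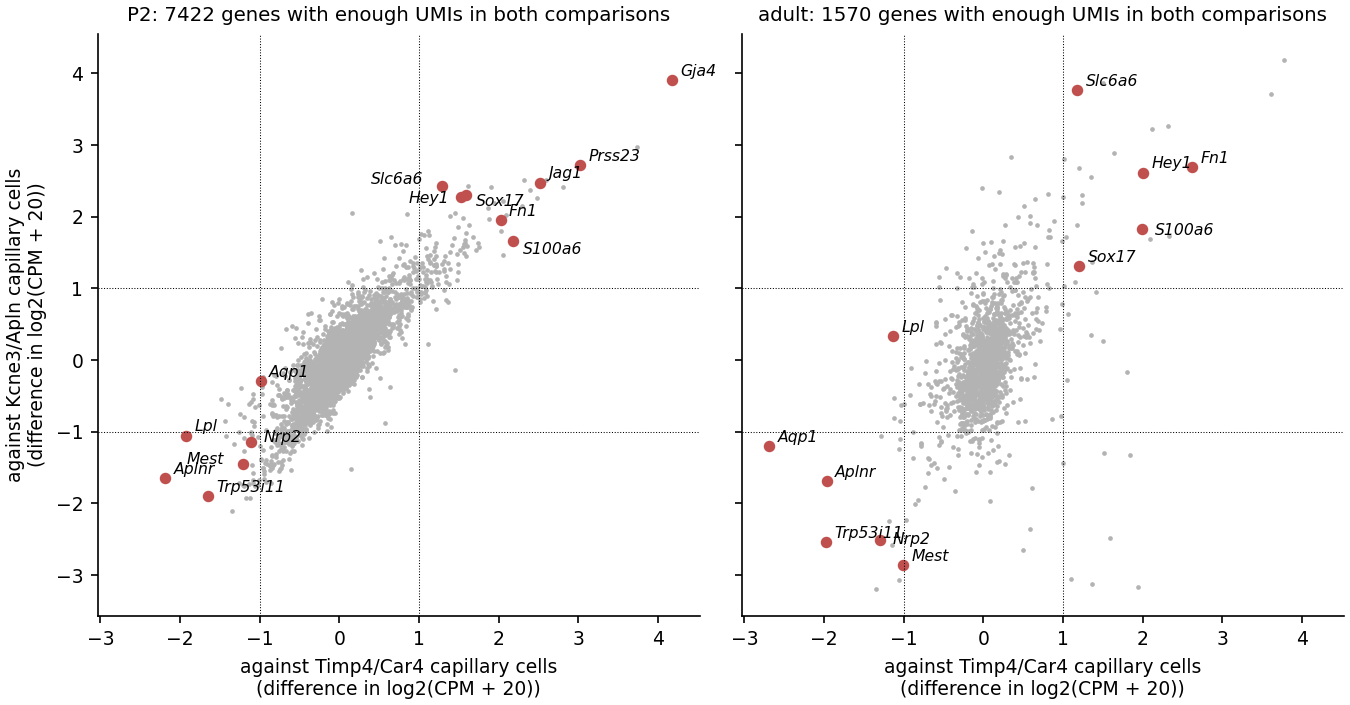
Differences between artery cells and Timp4/Car4 cells (x axis) and Kcne3/Apln cells (y axis) in log2(CPM + 20), 1 point per gene, for P2 and the adult. Gja4, Hey1, Fn1 and Sox17 lie at the upper right where they had enough UMIs, and Aplnr, Trp53i11 and Mest at the lower left.

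Part of the arterial identity genes were at least 2-fold higher in artery cells than in the capillary classes. Of 21 listed genes, 20 had enough UMIs against Timp4/Car4 cells at P2, of which 13 were at least 2-fold higher and none lower, with a median difference of 1.13 beside 0.03 over all genes. Against P2 Kcne3/Apln cells the counts were 13 higher and none lower of 20, with a median of 1.45. In the adult 8 of 20 were higher and none lower than in Timp4/Car4 cells, with a median of 0.89. Against adult Kcne3/Apln cells 5 of 7 were higher and none lower, with a median of 1.57. Among all genes, 1.6% were higher than in Timp4/Car4 and 2.25% higher than in Kcne3/Apln cells at P2. The adult shares were 1.54% and 6.62%. The artery marker Nrp1 did not follow the list, at 509 CPM in P2 artery cells against 596 CPM in Timp4/Car4 cells. Without the Cxcl12-alone cells the adult count against Timp4/Car4 cells was 9 of 20.

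Of 4 connexin genes, which form gap junctions, 2 were higher than in Timp4/Car4 cells at both stages, Gja4 and Gja5, and none lower. The share of all genes that were higher was 1.6% at P2 and 1.54% in the adult. Gja4 was at 496, 596 and 134 CPM in the artery cells of E15, P2 and adult, so the adult level was below P2. Timp4/Car4 cells held 14.0 and 8.09 CPM at P2 and adult, and the ratios were 42.6 (34.3 to 53.5) and 16.6 (11.1 to 25.6). A Gja4 UMI was seen in 67.6% of P2 artery cells and 4.97% of Timp4/Car4 cells, and in 17.8% and 1.24% of adult ones. Thinned to 500 UMIs, the shares in artery cells were 22.1% at P2 and 6.32% in the adult. Gja1, a gap junction gene of many cell types, showed no such pattern, at 98.6 against 113 CPM at P2 and 216 against 279.5 CPM in the adult.

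Among transcription factors of the list, Sox17, Hey1 and Mecom were at least 2-fold higher at both stages. Sox17, a SoxF factor, was at 708 CPM in P2 artery cells against 222 CPM in Timp4/Car4 and 128 CPM in Kcne3/Apln cells, and in the adult at 442 against 181 and 167 CPM. Its ratio to Timp4/Car4 cells was 3.19 (2.96 to 3.44) at P2, and the adult ratio was 2.45. Hey1, a Notch target, was at 228 against 66.1 CPM and at 267 against 51.5 CPM, with ratios of 3.45 (3.01 to 3.96) and 5.19 (4.36 to 6.20). Both factors thus stood above the capillary level at both stages. Mecom, a zinc finger factor, was at 232 against 63.9 CPM and at 292 against 118 CPM. Epas1, a hypoxia-inducible factor, was at 373 against 159 CPM at P2 and 742 against 464 CPM in the adult, a difference of 0.65. Sox7, another SoxF factor, differed by -0.21 at P2 and -0.60 in the adult.

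Ligands and receptors of arterial fate showed unequal differences. The Notch ligand Jag1 was at 161 against 11.6 CPM at P2, a ratio of 13.9 (10.7 to 18.1), and at 178 against 36.5 CPM in the adult, a ratio of 4.88 (3.97 to 6.04). The Notch ligand Dll4 was at 78.6 against 47.3 CPM at P2 and 105 against 99.5 CPM in the adult, neither of them 2-fold. Jag1 and Dll4 thus differed from one another in their separation from capillary cells. The growth factor Vegfc was at 174 against 18.9 CPM and 199 against 43.7 CPM. The guidance ligand Efnb2 was at 184 against 72.8 CPM and 137 against 66.8 CPM, the semaphorin Sema3g at 57.5 against 6.13 CPM and 143 against 15.6 CPM, and the netrin receptor Unc5b at 150.3 against 31.9 CPM and 108 against 45.2 CPM. Cxcr4, the receptor of Cxcl12, was low in both classes, at 22.7 against 3.62 CPM at P2 and 16.1 against 9.29 CPM in the adult.

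In the Notch pathway list, single members passed 2-fold. Of 13 genes with enough UMIs at P2, 3 were higher than in Timp4/Car4 cells (Jag1, Hey1 and the Notch glycosyltransferase Lfng) and none lower, with a median of 0.30, beside 1.6% of all genes higher and a median of 0.03. In the adult 2 of 13 were higher, Jag1 and Hey1, and 1 lower, the Notch target Hes1, with a median of 0.06 close to that over all genes, beside 1.54% of all genes higher and 0.421% lower. Hes1 was at 756 against 1225 CPM at P2 and 173 against 397 CPM in the adult. The Notch targets Hey1 and Hes1 therefore stood on opposite sides of the capillary level.

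Genes that signal to smooth muscle included several with higher levels in artery cells. Of 14 genes with enough UMIs, 4 were higher than in Timp4/Car4 cells at P2 and 3 in the adult, with 1 adult gene lower, the adenosine receptor Adora2a, and medians of 0.28 and 0.12. Over all genes 1.6% and 1.54% were higher, and 0.421% lower in the adult. The vasoconstrictor peptide Edn1 was at 67.0 against 7.23 CPM at P2 and 75.8 against 15.6 CPM in the adult. Tgfb2 was at 51.7 against 4.56 CPM and 71.4 against 4.79 CPM, and Pdgfd at 189 against 51.4 CPM and 312 against 142 CPM. Edn1, Tgfb2 and Pdgfd were at least 2-fold higher at both stages. Pdgfb, the pericyte recruitment factor, was at 118 against 57.9 CPM and 149 against 103 CPM. Ltbp4, which anchors latent TGF-beta in the matrix, was at 495 against 163 CPM at P2 and 936 against 518 CPM in the adult.

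Elastic fibre and arterial matrix genes were partly higher. At P2, 5 of 18 with enough UMIs were higher than in Timp4/Car4 cells (Fbln2, Ltbp4, Fn1, Mfap2 and Lama5) and none lower, with a median of 0.67, beside 1.6% of all genes higher. In the adult 4 of 16 were higher (Fbln2, Mgp, Bgn and Fn1) and none lower, with a median of 0.27, beside 1.54% of all genes higher. Without cells holding other types' markers 3 of 15 were higher, with a median of 0.20. Fibroblast markers moved with this list in the adult, all 5 with enough UMIs at least 2-fold higher than in Timp4/Car4 cells and their sum 6.39 times as high, and their part in it was not tested. Fbln2, a fibulin of arterial walls, was at 373 against 87.9 CPM and 349 against 110.2 CPM. Mgp, an inhibitor of calcification, was at 71.7 against 33.8 CPM at P2 and 333 against 50.3 CPM in the adult, where its difference of 2.33 was 1.36 without cells holding other types' markers. Fn1 and Fbln2 were thus at least 2-fold higher at both stages.

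Flow and BMP response genes were counted against both capillary classes, beside 1.6% of all genes higher than in Timp4/Car4 and 2.25% higher than in Kcne3/Apln cells at P2 (adult, 1.54% and 6.62%). The difference between these comparisons was not tested. Against P2 Kcne3/Apln cells 4 of 9 flow genes were higher (Klf2, Klf4, Podxl and Slc9a3r2) with a median of 0.75, and against Timp4/Car4 cells 1 of 9, Podxl, with a median of 0.43. The shear-induced factor Klf2 was at 2046 CPM in P2 artery cells against 1437 and 1013 CPM, and Klf4 at 525 against 349.9 and 184 CPM. In the adult none of 9 flow genes was higher than in Timp4/Car4 cells, with a median of -0.01. Against adult Kcne3/Apln cells 5 of 7 were higher, or 3 of 7 without cells holding other types' markers. Of the BMP and TGF-beta response list, 4 of 10 were higher than in P2 Kcne3/Apln cells (Smad6, Eng, Acvrl1 and Tgfbr2). None of 10 was higher than in P2 and none of 11 than in adult Timp4/Car4 cells, and 2 of 4 than in adult Kcne3/Apln cells. The P2 count against Timp4/Car4 cells was 2 of 10 without lymphatic cells and 2 of 10 without cells holding other types' markers. Without Cxcl12-only cells it was 1 of 10.

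Some capillary lipid uptake genes were at least 2-fold lower in artery cells than in Timp4/Car4 cells. Fabp4, the fatty acid carrier of cardiac capillaries, was at 11625 CPM in P2 artery cells against 22803 CPM, and at 17761 against 26891 CPM in the adult, with ratios of 0.510 and 0.660. Of 13 such genes with enough UMIs, 4 were at least 2-fold lower at P2 (Fabp5, Gpihbp1, Lpl and the transcription factor Meox2) and none higher, with a median of -0.60. In the adult 4 of 13 were lower (Fabp5, Lpl, Aqp1 and Cxcl9) and none higher, with a median of -0.32. Of all genes, 0.609% were lower and 1.6% higher than in P2 Timp4/Car4 cells. For adult Timp4/Car4 cells these shares were 0.421% and 1.54%. The water channel Aqp1 was at 378 against 770.5 CPM at P2 and 411 against 2759 CPM in the adult, ratios of 0.491 and 0.149. The glycerol channel Aqp7 did not follow, at 394 against 350.2 CPM and 1049 against 773 CPM. The scavenger receptor Cd36 was at 2096 against 3181 CPM and 3577 against 3905 CPM. Against Kcne3/Apln cells the picture was mixed, with 1 of 13 higher and 3 lower at P2. In the adult 3 of 12 were higher and 1 lower. There 2.25% of all genes were higher and 1.77% lower at P2, and 6.62% and 4.96% in the adult.

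Venous genes were not uniformly low. Of 11 vein and venule genes with enough UMIs at P2, 2 were lower than in Timp4/Car4 cells (Aplnr and Nrp2) and 1 higher, the serine protease Prss23, with a median of 0.15 that was -0.26 without lymphatic cells and -0.08 without cells holding other types' markers. The counts of genes past 2-fold were the same under both. In the adult 2 of 10 were lower and none higher, with a median of -0.13. Among all genes, 1.6% were higher and 0.609% lower at P2, and 1.54% and 0.421% in the adult. Prss23 was at 237 against 11.8 CPM at P2 and 34.2 against 26.7 CPM in the adult. The venous factor Nr2f2 was at 33.2 against 57.1 CPM and 15.2 against 25.8 CPM, within 2-fold.

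**Figure D4:**
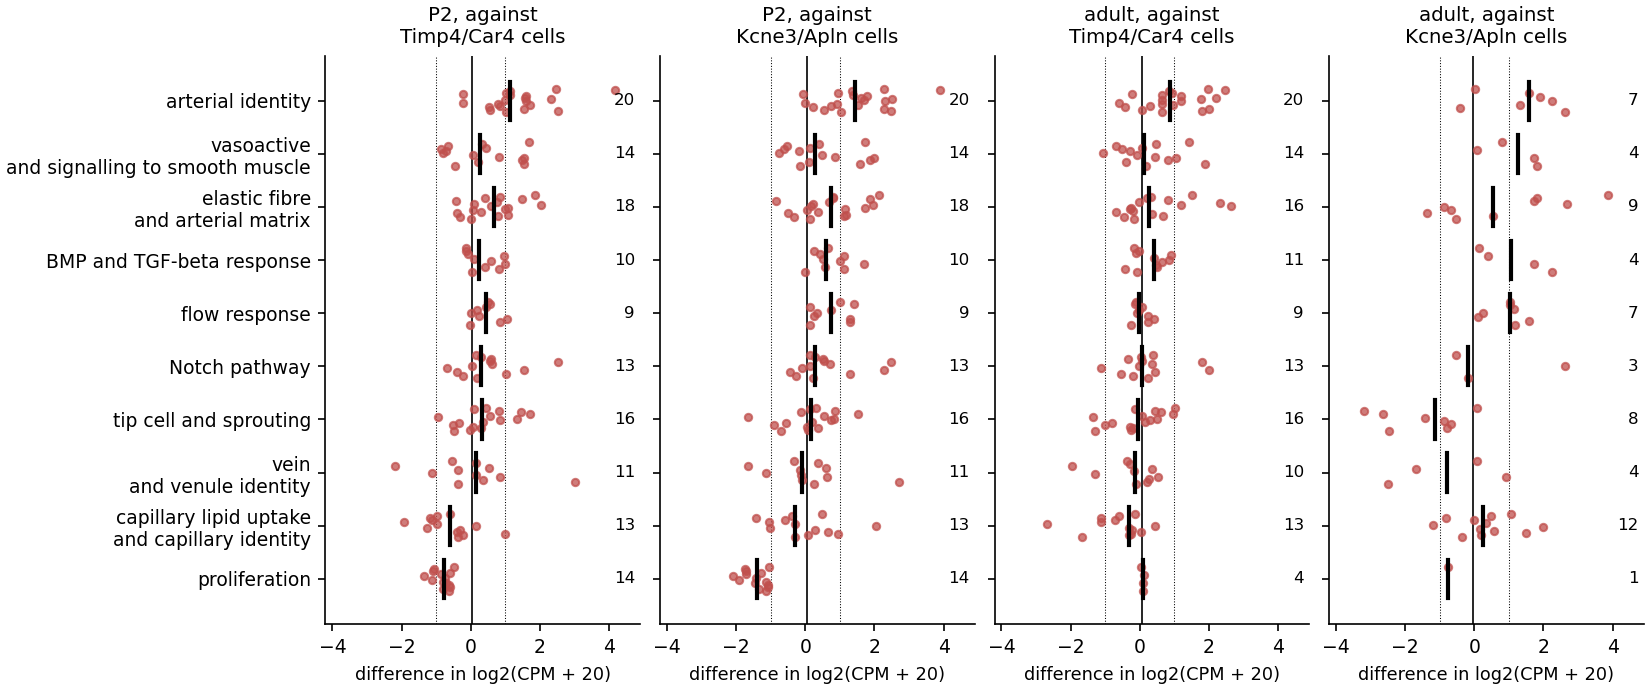
Differences in log2(CPM + 20) between artery cells and each capillary class at P2 and in the adult for 10 gene lists, 1 point per gene with enough UMIs and a thick bar at the list's median. The number at the right is the count of genes, dotted lines mark 2-fold and the thin line the median over all genes. Most arterial identity genes lie to the right in each panel, with medians from 0.89 to 1.57.

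Proliferation genes were low in artery cells at P2. All 14 with enough UMIs were at least 2-fold lower than in Kcne3/Apln cells, with a median of -1.39, beside 1.77% of all genes. Against Timp4/Car4 cells 4 were lower (Top2a, Ccnb1, Birc5 and Ube2c), with a median of -0.77, beside 0.609% of all genes. Top2a, a topoisomerase of dividing cells, was at 49.1 CPM against 124 and 213 CPM, and the mitotic survivin gene Birc5 at 53.8 against 167 and 296 CPM. The cell cycle inhibitor Cdkn1c was at 688 CPM in P2 artery cells against 238 and 151 CPM. It was the only 1 of 6 inhibitors that was higher than in Timp4/Car4 cells, beside 1.6% of all genes. In the adult it was at 595 CPM against 603 CPM in Timp4/Car4 and 96.7 CPM in Kcne3/Apln cells. Adult artery and Timp4/Car4 cells were thus alike in level for Cdkn1c, with a ratio of 0.987 (0.918 to 1.06). Adult Mki67 was at 3.91 and 3.59 CPM in artery and Timp4/Car4 cells, and none of 4 adult proliferation genes passed 2-fold against Timp4/Car4 cells.

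Tip cell genes gave 3 of 16 higher than in P2 Timp4/Car4 cells (Igfbp3, Unc5b and Pgf) and none lower, beside 1.6% and 0.609% of all genes. In the adult 1 of 16 was higher, Esm1 at 45.5 against 12.3 CPM, or none of 16 without the Cxcl12-alone cells, and 2 lower, Adm and the actin-sequestering Tmsb10, beside 1.54% and 0.421% of all genes. Tmsb10 was at 780.3 CPM in adult artery cells against 1959 CPM in Timp4/Car4 cells. Against P2 Kcne3/Apln cells 1 of 16 was higher, Unc5b, and 1 lower, Adm, with a median of 0.16. Against adult Kcne3/Apln cells none of 8 was higher and 4 were lower (Adm, Pgf, Nid2 and Tmsb10), with a median of -1.15. Without cells holding other types' markers 2 of 6 were lower there. In these comparisons 2.25% of all genes were higher and 1.77% lower at P2, and 6.62% and 4.96% in the adult.

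For lists related to the selecting genes, at most 1 member passed 2-fold against Timp4/Car4 cells at a stage, beside 1.6% of all genes higher and 0.609% lower at P2 and 1.54% and 0.421% in the adult. Of 11 glutamine and amino acid genes with enough UMIs at P2 and 12 in the adult, 1 was higher than in Timp4/Car4 cells, Slc6a6, and none lower. Of 18 stathmin, microtubule and actin-binding genes none was higher at either stage and 1 was lower at P2, Tubb6, and none of 4 phosphatase and purine genes at P2 or 3 in the adult passed 2-fold. Stress genes were within 2-fold at P2 against Timp4/Car4 cells, with 0 of 12 immediate early and 0 of 8 heat shock genes past it. In the adult the heat shock genes Hspa1a and Hspb1 and the early gene Atf3 were lower than in Timp4/Car4 cells. Hspa1a was at 1581 against 3247 CPM there.

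Values on both sides of the threshold on the arterial sum were compared without a test. At P2, 19 cells with a sum of 3 and 17 that met the rest of the rule with a sum of 2 held Gja5 at 15.7 and 16.1 CPM, Gja4 at 235 and 48.2 CPM and Sox17 at 204 and 145 CPM. In the adult, 100 cells inside and 66 outside held Gja5 at 57.3 and 0 CPM, Gja4 at 115 and 29.1 CPM and Hey1 at 188 and 72.8 CPM.

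Sox17 and Gja4 were also given by the size of the arterial sum, which is the value that chose the cells. Cells with sums of 3 to 5, 6 to 11 and 12 or more numbered 48, 78 and 272 at P2, and their Sox17 levels were 235, 376 and 869 CPM. Gja4 was at 357, 351 and 698 CPM over the same groups. In the adult the groups numbered 289, 447 and 371 cells, with Sox17 at 268, 428 and 526 CPM and Gja4 at 126, 121 and 148 CPM. Sums grow with a cell's depth, and the part of depth was not tested.

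The 186 adult cells chosen by Cxcl12 alone were compared with the rest of the artery cells and with capillary cells. Their Gja5 was at 4.06 CPM, Gja4 at 28.4 CPM, Hey1 at 69.1 CPM, Sox17 at 191 CPM and Fn1 at 77.2 CPM. Timp4/Car4 cells held 6.59, 8.09, 51.5, 181 and 23.4 CPM of these genes, and the other 921 artery cells 94.5, 148, 295, 477 and 271 CPM. Fabp4 was at 24182 CPM in the Cxcl12-alone cells, between 26891 CPM in Timp4/Car4 cells and 16883 CPM in the other artery cells. These cells are defined by having no UMI of the other 4 selecting genes, so they are given as a description.

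Cells with a Gja5 UMI were at the other end. In the adult the 120 such cells held Gja4 at 297 CPM, Hey1 at 491 CPM, Fn1 at 477 CPM and Mgp at 763 CPM, and the 987 without held 109, 233, 212 and 267 CPM. Cxcl12 ran the other way, at 1716 CPM with and 3785 CPM without a Gja5 UMI, as did Fabp4, at 11427 and 18735 CPM. At P2 the 63 cells with Gja5 held Gja4 at 1088 CPM and Fabp4 at 7699 CPM, and the 335 without held 489.6 and 12475 CPM. Cells with a Gja5 UMI thus had more Gja4 and less Fabp4 than those without at both stages.

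**Figure D5:**
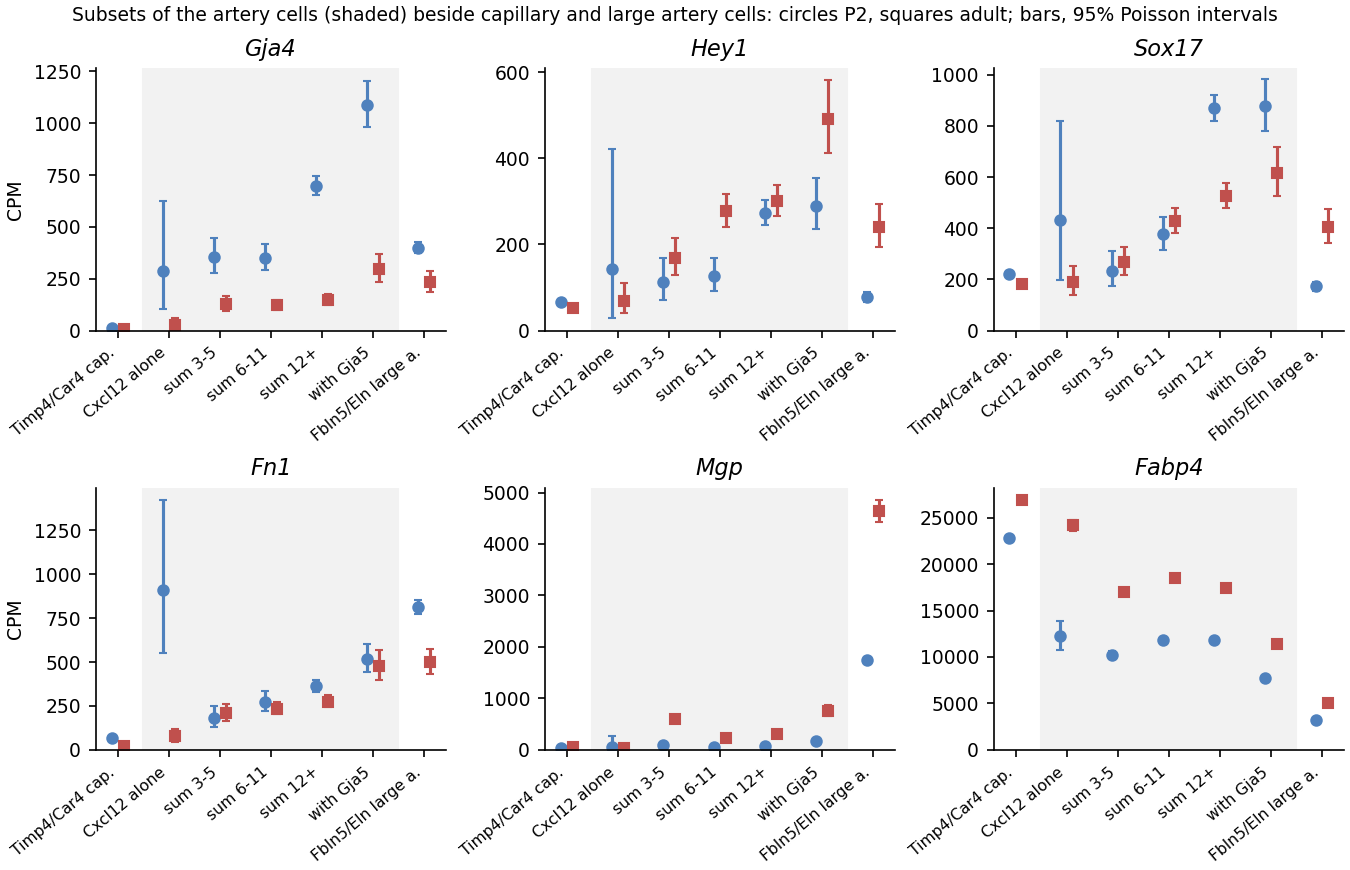
Levels (CPM) of Gja4, Hey1, Sox17, Fn1, Mgp and Fabp4 in subsets of the artery cells (shaded) beside Timp4/Car4 and large artery cells, at P2 (circles) and in the adult (squares), with 95% Poisson intervals. The 186 adult cells chosen by Cxcl12 alone lie between the Timp4/Car4 cells and the other subsets for Gja4 (28.4 CPM) and Hey1 (69.1 CPM), and cells with a Gja5 UMI have the lowest Fabp4 of the subsets.

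Markers of other cell types were counted in cells and as levels. The counts of cells depend on depth, which was a median of 4348 UMIs in P2 and 1613 in adult artery cells. Cells with at least 2 UMIs of a list numbered 85 of 398 at P2 and 30 of 1107 in the adult for endocardial, 57 and 22 for epicardial, 45 and 8 for valve, 35 and 12 for lymphatic, 29 and 24 for cardiomyocyte, 15 and 34 for mural and 12 and 24 for fibroblast markers. Endocardial markers summed to 345 CPM in P2 and 119.8 CPM in adult artery cells, beside 153 and 64.4 CPM in Timp4/Car4 cells, led by Igfbp5 and with Npr3 and Tmem108 at 0 by the rule. Lymphatic markers summed to 1262, 1575 and 197 CPM in the artery cells of E15, P2 and adult, and to 33.2 CPM in the E12 cells chosen by the rule. The P2 sum was led by the lymphatic chemokine Ccl21a at 1383 CPM and came with 25 cells (6.28%) holding at least 5 lymphatic UMIs, of which 22 held the lymphatic factor Prox1. All 25 held Stmn2 and 2 held Cxcl12. Without them P2 artery cells held Cxcl12 at 2865 CPM, Sox17 at 758 CPM and Gja5 at 101 CPM, and 14 of 20 arterial identity genes were at least 2-fold higher than in Timp4/Car4 cells. In the adult 6 of 1107 cells held such UMIs. Mural markers summed to 57.5 CPM at P2 and 462 CPM in the adult, led there by Rgs5 at 254 CPM, and fibroblast markers to 40.6 and 471 CPM, led by Dcn at 275 CPM in the adult and with Tcf21 at 0 at P2. Leukocyte markers summed to 8.44 and 678 CPM, the latter led by Lyz2 at 311 CPM and with at least 2 UMIs in 6 cells. The adult Timp4/Car4 cells held 84.8, 73.7 and 20.4 CPM of these lists. With cells of at least 2 mural, fibroblast, cardiomyocyte, leukocyte or erythroid UMIs left out, 9 of 19 arterial identity genes were at least 2-fold higher than in adult Timp4/Car4 cells and 12 of 19 at P2. With no cells left out, 1.6% of all genes were higher than in Timp4/Car4 cells at P2 and 1.54% in the adult.

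Many capillary lipid genes were at least 2-fold higher in artery cells than in the Fbln5/Eln large artery cells. Part of the matrix genes were at least 2-fold lower. At P2, 173 of 7945 genes (2.18%) were at least 2-fold higher in artery cells and 236 (2.97%) lower, and in the adult 94 of 3141 (2.99%) higher and 143 (4.55%) lower. The large artery class is itself a class by gene sums and held lymphatic markers at 6279 CPM at P2 and fibroblast markers at 2076 and 6040.4 CPM at P2 and adult, whose part in these counts was not tested. Fabp4 was at 11625 CPM in P2 artery cells against 3209 CPM and at 17761 against 5049 CPM in the adult, ratios of 3.62 and 3.52. Of 13 capillary lipid genes 8 were higher and none lower at P2, and 9 of 12 in the adult, with medians of 1.56 and 1.61. Btnl9, a butyrophilin-like gene of capillary endothelium, was at 270.1 CPM against 23.2 CPM and 547 against 73.1 CPM. Matrix genes were lower in 10 of 19 cases at P2 and 5 of 14 in the adult, and higher in 3 at P2 (the basement membrane collagens Col4a1 and Col4a2 and the matrix protein Sparc) and 2 in the adult (Col4a1 and Col4a2). Mgp was at 71.7 against 1746 CPM and 333 against 4634 CPM.

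Arterial identity genes were also compared with large artery cells. At P2, 6 of 21 were at least 2-fold higher in artery cells (Mecom, Vegfc, Acvrl1, Sox17, Unc5b and Hey1) and 2 lower, Ackr3 and Hey2, with a median of 0.69. In the adult none of 17 was higher and 2 were lower, Gja5 and the arterial kinase Bmx, with a median of 0.11. Among all genes, 2.18% were higher and 2.97% lower at P2, and 2.99% and 4.55% in the adult. Sox17 was 4.10 times the large artery level at P2 and 1.09 times in the adult, and Hey1 2.94 and 1.11 times. The difference between the stages was not tested.

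Adult artery cells were compared with P2 artery cells, each from 1 library. Of 7744 genes, 263 (3.4%) were at least 2-fold higher in adult artery cells and 202 (2.61%) at least 2-fold lower. Of 20 arterial identity genes 2 were higher and 1 lower. Gja4 stood at 0.225 times its P2 level (0.196 to 0.257), Gja5 at 0.857, Hey1 at 1.17 and Sox17 at 0.625 times. Mest was at 0.0299 times its P2 level and Lpl at 3.22 times. Neither direction was particular to artery cells. In Timp4/Car4 cells Mest was also lower in the adult, and Lpl was higher, at 461 CPM at P2 and 774 CPM in the adult. Of 13 proliferation genes 7 were lower and none higher in the adult, with a median of -1.10.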

How the data were processed

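The 4 libraries were made with the 10x Genomics 3′ kit, version 2, and the authors processed the reads with Cell Ranger 2.2 against mm10. The deposited matrices hold raw UMI counts per gene and barcode for 27998 genes, with no normalization. The E12 matrix held all 737280 barcodes, so barcodes with 452 or more UMIs were kept, which is the share of 0.1 of the 0.99 quantile among 3000 expected cells. The other matrices were used whole.

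UMIs of a class were summed and given as CPM. A comparison used genes expected to give at least 20 UMIs in the smaller class and a pseudocount of 20 CPM, and called a difference of at least 2-fold. Intervals are exact Poisson, binomial and conditional binomial 95% intervals. Genes were named by the difference nearest to 0 over all comparisons, the 20 highest and the 10 lowest. Cells, gene lists and rules were chosen with earlier results of these data known. Doublets were kept, and a Scrublet score above 0.15 served as an alternative, as did other sums, classes, filters, pseudocounts and TMM scaling. The calculation was tested on simulated data. Python 3.11.15, NumPy 2.4.6, SciPy 1.17.1, pandas 2.3.3, scanpy 1.11.5, matplotlib 3.10.9, R 4.3.3 and edgeR 4.0.16 were used.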

Additional observations from a re-analysis of the deposited data

How the results depend on the processing

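The adult share of artery cells exceeded the P2 share under every alternative tried, and Gja5, Gja4, Hey1, Sox17 and Fn1 kept their direction against Timp4/Car4 cells at P2 and in the adult. The counts of genes past 2-fold depended on the pseudocount and filter. A sum of 2 or more UMIs gave shares of 3.54% at E12, 1.47% at E15 and 29.8% in the adult, and 35 higher genes at E12. A sum of 5 or more gave 1.39%, 0.286% and 23.0%. Thinning to 500 UMIs gave shares of 0.331, 0.198, 4.25 and 17.0% from E12 to adult, Gja5 at 171 CPM at P2, and 31 higher and 20 lower genes against P2 Timp4/Car4 cells, 8 and 5 against P2 Kcne3/Apln cells and 33 higher against adult Timp4/Car4 cells. Without cells holding other types' markers the E12 share was 0.325%. Leaving Cxcl12 out of the sum gave shares of 0.632, 0.286, 7.28 and 10.3%, adult Gja5 at 147 CPM and 76 lower genes against adult Timp4/Car4 cells. Leaving out Glul gave 8.79% at P2, 24.8% in the adult and P2 Gja5 at 117 CPM, leaving out Alpl 25.9% in the adult, and leaving out Stmn2 0.491, 9.16 and 24.7% for E15, P2 and adult. Leaving out Cxcl12-only cells gave 0.822% at E12, 0.491% at E15 and 23.4% in the adult. Without Stmn2 in the sum the difference of the growth factor binding protein Igfbp5 from P2 Timp4/Car4 cells turned from 1.37 to -0.12; the cause was not tested.

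Counts against Timp4/Car4 cells at P2 were 224 higher and 132 lower with a pseudocount of 5 and 51 and 12 with 50, against Kcne3/Apln cells at P2 331 and 289 or 78 and 52, and against adult Timp4/Car4 cells 203 and 89 or 54 and 18. With every cell whose capillary sum exceeded the arterial sum as a capillary cell, 7 genes were lower at E12, 76 against P2 Timp4/Car4 and 85 against P2 Kcne3/Apln cells. A filter of 50 expected UMIs left 4 higher and 9 lower genes at E12 and 52 and 27 against adult Kcne3/Apln cells, and no filter gave 1414 and 1227 or 399 and 310. The study's limits on UMIs, genes and mitochondrial share gave 45 lower genes against adult Kcne3/Apln cells. With CPM over genes outside the rule, mitochondrial, ribosomal and haemoglobin sets, Gja5 was at 121 CPM at P2 and 99.7 CPM in the adult. Of 3067 alternative values for named genes past 2-fold, 115 were no longer past it, 29 of them with a pseudocount of 50. Settings that left fewer than 30 artery cells gave no E12 comparison. The alternatives without lymphatic cells, without Cxcl12-only cells and over P2 and adult alone were chosen after seeing the data. No paired analysis was possible because each stage was 1 library. The 38 and 20 cells of E12 and E15 held 60165 and 22192 UMIs in all, which limits what could be compared there.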

Other observations

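Interferon response genes were higher in adult than in P2 cells of both classes. Of 12 such genes with enough UMIs in artery cells, 11 were at least 2-fold higher in the adult and none lower, with a median of 1.44, beside 3.4% of all genes higher. In Timp4/Car4 cells 11 of 13 were higher, with a median of 1.51, beside 2.71% of all genes. The summed level of the 13 genes in artery cells was 3414 CPM at P2 and 9304 CPM in the adult, led at both stages by the surface antigen Ly6a at 1363 and 3939 CPM. The transcription factor Irf7 was at 26.4 CPM in P2 and 209 CPM in adult artery cells, and the antiviral protein Rsad2 at 58.0 and 175 CPM. Within a stage artery and Timp4/Car4 cells differed in 1 of 10 genes at P2, Ly6a, and 1 of 13 in the adult, Ifi27l2a. Both were higher in artery cells, beside 1.6% and 1.54% of all genes. Without lymphatic cells none of 13 adult genes was higher, and without cells holding other types' markers none of 12. Stage and library cannot be told apart for these genes.

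Some genes differed from P2 to adult in artery cells beyond the mean difference of both capillary classes, among 1452 genes with enough UMIs in all 3 classes. Rbp7, an endothelial retinol-binding protein, was at 1260.2 and 1828 CPM in artery cells and at 1022 and 764 CPM in Timp4/Car4 cells, an excess of 1.05 on the log2 scale. Lipoprotein lipase, Lpl, was at 107 and 343 CPM in artery cells and at 461 and 774 CPM in Timp4/Car4 cells, an excess of 1.09. The transcription factor Meox2 was at 94.4 and 159 CPM against 254 and 201 CPM. In the other direction, the factor Sox4 was at 214 and 14.2 CPM in artery cells and at 164 and 55.7 CPM in Timp4/Car4 cells, an excess of -1.79. Aqp1 was at 378 and 411 CPM in artery cells but at 770.5 and 2759 CPM in Timp4/Car4 cells, and the heat shock gene Hspa1a at 427 and 1581 CPM against 316 and 3247 CPM. Tmsb10 was at 3766 and 780.3 CPM in artery cells. These differences rest on 1 library per stage.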
